A study of Homo sapiens with 18 samples.

Results

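The genes described here are *WDR1* and 9 partners of its protein in the disassembly of actin filaments, *CFL1*, *CFL2*, *DSTN*, *CAP1*, *CORO1A*, *GSN*, *LIMK1*, *LIMK2* and *SSH1*. They are 10 of the 26941 genes in the count tables. *WDR1* was selected because it was lower with *SOX11* siRNA than with control siRNA in each cell line, so its decrease is given as a description with no test, while the 9 partners were listed for the role of their proteins. RNA was sequenced from 18 samples of REH, 697 and RCH-ACV, established cell lines of B-cell precursor acute lymphoblastic leukemia. REH carries the ETV6-RUNX1 fusion. In each line 3 samples had been nucleofected with *SOX11*-specific siRNA and 3 with a non-specific control siRNA, all at 300 nM, and cells were collected after 48 h, so that every sample had undergone nucleofection and no untransfected cells were compared. The sample titles call the siRNA samples KO, although the siRNA is transient and leaves part of the transcript, and the methods of the study name the 3 samples of a group independent biological replicates. The partners were measured to ask whether they moved together with *WDR1*.

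Actin filaments are turned over by cofilins, small proteins that bind the filament, change its twist and sever it. The *WDR1* protein, also called actin-interacting protein, binds filaments decorated with cofilin and speeds their breakage into short pieces and monomers. LIM kinases switch cofilins off by phosphorylation, and slingshot phosphatases switch them on again. Actin turnover drives the migration of blood cells, and inherited defects of *WDR1* or of *CORO1A* cause immune deficiency.

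A 7-base word is shown first because it is shared by *WDR1* and *SOX11*, the gene that the siRNA was made against. The word, GTGACGC, had been picked in an earlier scan of these same libraries as the one whose carriers fell most, so its presence in *WDR1* is no independent support for anything. The *WDR1* copy lies in the 3′ UTR on the minus strand of hg19, at chr4:10076906-10076935, and the *SOX11* copy lies in the 3′ UTR on the plus strand, at chr2:5834337-5834366. Capitals mark the word in the 30 bases printed 5′ to 3′ around each copy.
WDR1: catttctctatttctGTGACGCgcccccat
SOX11: tattgataagatgtcGTGACGCaaagaaat
The windows had the same base at 14 of 30 positions, and the 7-base word was their longest shared run. The 3′ UTR of *WDR1*, 1039 bases long, held 1 copy. None of the 9 partners held a copy in its 3′ UTR, the longest of which, that of *SSH1*, has 9797 bases. Among 12285 genes with a 3′ UTR that were tested in at least 1 line, 195 (1.59%) carried the word, and of those whose 3′ UTR was within 10% of the length of that of *WDR1*, which numbered 697, 7 (1.00%) did. A shared word is a description of these letters, and whether it is a site of action was not tested. The siRNA sequences were not among the sources used here, so the word was not compared with them.

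Total counts ranged from 7039594 to 16592492 per sample, and 3 counts corresponded to between 0.179 and 0.440 CPM, the count scaled to library size by factors fitted over the 18 samples together. The targeted gene, *SOX11*, lay below the controls in each sample with its siRNA, and its mean was 56.3% of the control level for REH, 53.0% for 697 and 62.7% for RCH-ACV. Of the 8 B-cell precursor markers, 8 exceeded 1 CPM in every sample of 697 and of RCH-ACV and 7 did in REH, where *VPREB1* reached at most 0.0959 CPM. T cell markers stayed at or below 0.191 CPM and erythroid markers were at 0. Of the 4 myeloid markers, *MPO* lay between 7.48 and 14.9 CPM in REH and was lower with *SOX11* siRNA there, with a mean of 7.90 CPM against 13.5 CPM. *CSF1R* lay between 23.1 and 30.4 CPM in RCH-ACV and between 2.35 and 4.64 CPM in 697. The part of these markers in the results was not tested. In 3 libraries the counts stood apart from those of their own group, with a chi-square per degree of freedom above 3 against both others, while every other pair of replicates was at or below 2.27. These were *SOX11* siRNA replicate 3 and control siRNA replicate 1 of 697, and *SOX11* siRNA replicate 3 of RCH-ACV. Results that rest on them are given with and without them, an alternative chosen after seeing the data. Those fits have fewer samples. Leaving out libraries because they differ from their own group also narrows the spread within groups, so their p-values are not those of an ordinary test.

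*WDR1* (NM_017491, chromosome 4 of hg19 from 10069713 to 10118596, minus strand) was lower in every sample with *SOX11* siRNA than in every control of the same line. In REH the control samples stood at 352, 367 and 354 CPM and the *SOX11* siRNA samples at 293, 283 and 269 CPM. In 697 the controls stood at 141, 139 and 147 CPM and the *SOX11* siRNA samples at 66.8, 69.1 and 71.7 CPM. In RCH-ACV the controls stood at 360.4, 343 and 359 CPM and the *SOX11* siRNA samples at 219, 217 and 244 CPM. The highest value of *SOX11* siRNA replicate 3 in RCH-ACV belongs to 1 of the libraries that stood apart. As fitted log2 fold changes these are -0.34 in REH (SE 0.04, 95% CI -0.42 to -0.26), -1.04 in 697 (SE 0.06, 95% CI -1.17 to -0.91) and -0.65 in RCH-ACV (SE 0.05, 95% CI -0.75 to -0.55), or 78.9%, 48.6% and 63.8% of the control level. The value was -0.70 in RCH-ACV without *SOX11* siRNA replicate 3, and -1.07 in 697 without both libraries that stood apart there. The fitted decrease was smallest in REH and largest in 697, and the intervals are given as the precision of each value and not as a test. In RNA from whole cultures, fewer cells expressing a gene and less of its RNA per cell cannot be told apart. The tables hold 2 transcripts of *WDR1*, and both gave nearly the same log2 ratio of means, -0.35 for each in REH. It was -1.04 and -1.06 in 697, and -0.65 and -0.62 in RCH-ACV. The other transcript, NM_005112, held between 80.5% and 82.5% of the count of NM_017491 in the mean of each group, and since both cover the same gene their counts are not independent.

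**Figure D1:**
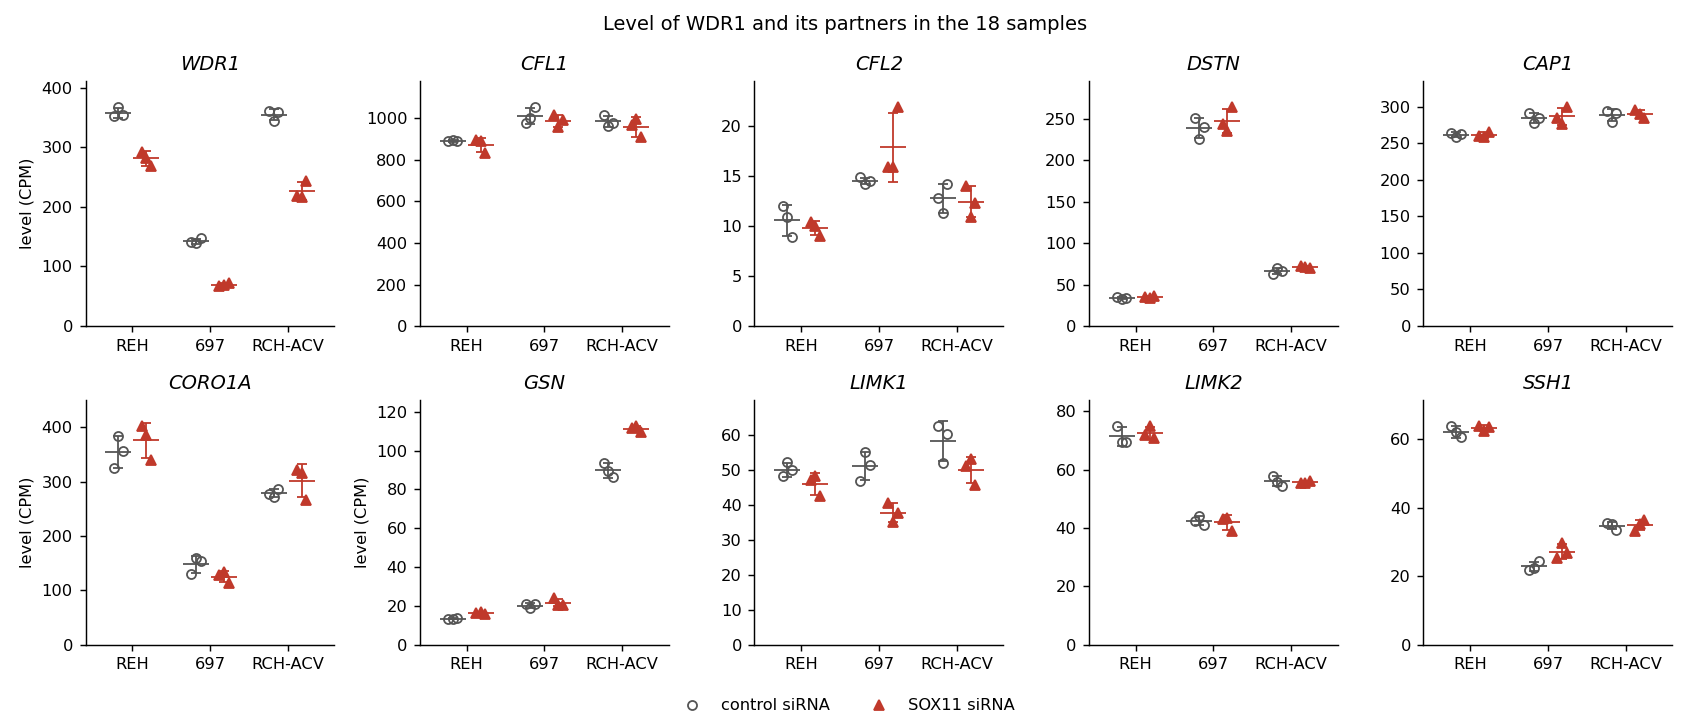
Level of *WDR1* and its 9 partners in the 18 samples, in CPM on a linear axis from 0, for each cell line on the horizontal axis. Open circles are control siRNA and filled triangles *SOX11* siRNA samples, horizontal bars are means and whiskers are SD (n = 3). Each of the 9 triangles of *WDR1* lies under the circles of its line, *CFL1* and *CAP1* overlap between the groups in each line, and *GSN* lies higher in REH and RCH-ACV.

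The cofilins, which sever the filaments that *WDR1* then breaks down, did not pass the test in any line. *CFL1* (NM_005507, chromosome 11 of hg19 from 65590493 to 65629497), the main cofilin of non-muscle cells, stood at 891, 899 and 890.5 CPM in the REH controls and at 896, 889.6 and 834 CPM with *SOX11* siRNA. In 697 its controls stood at 978, 1004 and 1054 CPM and the *SOX11* siRNA samples at 1016, 958 and 992 CPM. In RCH-ACV the controls stood at 1015, 965 and 981 CPM and the *SOX11* siRNA samples at 969, 999.9 and 909 CPM. The groups overlapped in each line. The log2 fold changes of *CFL1* were -0.03 in REH (95% CI -0.09 to 0.04, adjusted p = 0.732), -0.04 in 697 (95% CI -0.14 to 0.06, adjusted p = 0.928) and -0.04 in RCH-ACV (95% CI -0.12 to 0.04, adjusted p = 0.602). None of these intervals reached the decrease of *WDR1* in the same line. Exons of *CFL1* overlap those of *MUS81* and *SNX32* on the opposite strand, and the strand setting of the counting is not given in the sources used here. The annotation also names 7 pseudogenes of *CFL1*, and reads mapping to more than 2 places had been discarded, so its level is uncertain.

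*DSTN* (NM_001011546, chromosome 20 from 17550720 to 17590564), which encodes destrin, the depolymerizing relative of cofilin, had higher means with *SOX11* siRNA in each line, by amounts that did not pass the test. The REH controls had a mean of 33.8 ± 0.974 CPM and the *SOX11* siRNA samples one of 34.9 ± 1.20 CPM (SD, n = 3). For 697 these means were 239 ± 12.2 and 247 ± 14.7 CPM, and for RCH-ACV 66.1 ± 3.88 and 71.0 ± 0.864 CPM. The corresponding log2 fold changes were 0.06 (adjusted p = 0.736), 0.05 (adjusted p = 0.921) and 0.10 (adjusted p = 0.316). In RCH-ACV the 3 samples with *SOX11* siRNA, at 71.9, 70.7 and 70.3 CPM, lay above the controls, at 62.4, 70.1 and 65.8 CPM. The annotation names 4 pseudogenes of *DSTN*. *CFL2* (NM_001243645, chromosome 14 from 35178319 to 35184029), the cofilin best known from muscle, had the fewest counts of the members in each line, and its intervals were wide. Its log2 fold change was -0.13 in REH (95% CI -0.39 to 0.13, adjusted p = 0.665), 0.30 in 697 (95% CI -0.01 to 0.62, adjusted p = 0.631) and -0.08 in RCH-ACV (95% CI -0.34 to 0.19, adjusted p = 0.760). In 697 the *SOX11* siRNA samples stood at 15.9, 15.9 and 21.9 CPM against 14.9, 14.2 and 14.4 CPM in the controls. The highest of these belongs to *SOX11* siRNA replicate 3, a library that stood apart, and without it the log2 fold change of *CFL2* was 0.13.

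*CAP1* (NM_006367, chromosome 1 from 40505905 to 40538321) encodes cyclase-associated protein, which helps cofilin to strip monomers from filament ends and reloads them with ATP. In each line its fitted difference was the smallest of the members by size. The mean of the REH controls was 262 ± 3.25 CPM and that of the *SOX11* siRNA samples 262 ± 3.98 CPM (SD, n = 3). The corresponding means were 285 ± 6.84 and 287 ± 11.5 CPM for 697, and 289 ± 8.19 and 290.2 ± 5.01 CPM for RCH-ACV. The log2 fold change was 0.01 in each line, with 95% CI of -0.07 to 0.08 in REH, -0.09 to 0.11 in 697 and -0.08 to 0.09 in RCH-ACV, and adjusted p of 0.963, 0.985 and 0.947. A change of *CAP1* as large as that of *WDR1* lay outside all 3 intervals. The annotation names 2 pseudogenes of *CAP1*.

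*CORO1A* (NM_001193333, chromosome 16 from 30194148 to 30200397) encodes coronin 1A, the coronin of blood cells, which binds filaments and works with cofilin in their turnover. In REH its controls stood at 325, 383 and 356 CPM and the *SOX11* siRNA samples at 403, 385 and 340.4 CPM. In 697 the controls stood at 129.6, 159 and 155 CPM and the *SOX11* siRNA samples at 128, 134 and 114 CPM. In RCH-ACV the controls stood at 278, 272 and 286 CPM and the *SOX11* siRNA samples at 322, 316 and 267 CPM. The groups overlapped in each line. The overlap in 697 came from control siRNA replicate 1 and that in RCH-ACV from *SOX11* siRNA replicate 3, both libraries that stood apart. With all samples the log2 fold changes of *CORO1A* were 0.09 (adjusted p = 0.445) in REH, -0.24 (adjusted p = 0.494) in 697 and 0.12 (adjusted p = 0.257) in RCH-ACV. Without the libraries that stood apart, it was -0.26 in 697 (adjusted p = 0.0203) and 0.19 in RCH-ACV (adjusted p = 0.000230 by edgeR), and the difference of the effect between the lines passed the test (adjusted p = 0.00292), which it did not with all samples (adjusted p = 0.287). In these fits with fewer samples 1.62% of all genes passed in 697, 19.3% in RCH-ACV and 5.11% for the difference between lines. With all samples these shares were 0.559%, 7.67% and 0.727%, so the calls of *CORO1A* came with a rise over all genes. Exons of *CORO1A* overlap those of an antisense gene, *CORO1A-AS1*.

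*GSN* (NM_001127666, chromosome 9 from 123970072 to 124095121) encodes gelsolin, which severs filaments in response to calcium and caps the ends it makes. It was the only partner that passed the test in a single line, where it rose. In RCH-ACV its controls stood at 93.9, 89.5 and 86.4 CPM and the *SOX11* siRNA samples at 112, 113 and 109.7 CPM. In REH the controls stood at 13.1, 13.3 and 13.6 CPM and the *SOX11* siRNA samples at 16.2, 16.7 and 16.0 CPM. In 697 the controls stood at 20.7, 18.8 and 20.7 CPM and the *SOX11* siRNA samples at 23.8, 20.6 and 20.5 CPM. The groups were apart in RCH-ACV and in REH and overlapped in 697. The log2 fold change of *GSN* was 0.31 in RCH-ACV (SE 0.05, 95% CI 0.20 to 0.42, adjusted p = 0.00141), 0.30 in REH (SE 0.10, 95% CI 0.09 to 0.50, adjusted p = 0.0913) and 0.10 in 697 (SE 0.10, 95% CI -0.13 to 0.33, adjusted p = 0.912). The 10 transcripts of *GSN* in the tables gave nearly the same log2 ratio of means, from 0.28 to 0.29 in REH, 0.11 in 697 and 0.31 in RCH-ACV. They cover the same gene, so their counts are not independent and their likeness adds no support. Exons of *GSN* overlap those of *GSN-AS1* and a second antisense gene.

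Among the enzymes that set the activity of cofilin, *LIMK1* (NM_002314, chromosome 7 from 73497263 to 73536855), a kinase that switches cofilins off, had lower means with *SOX11* siRNA in each line. In REH the controls stood at 48.1, 52.0 and 49.8 CPM and the *SOX11* siRNA samples at 47.0, 48.2 and 42.4 CPM. In 697 the controls stood at 46.8, 54.9 and 51.3 CPM and the *SOX11* siRNA samples at 40.4, 34.9 and 37.7 CPM. In RCH-ACV the controls stood at 62.5, 51.8 and 60.2 CPM and the *SOX11* siRNA samples at 51.0, 53.0 and 45.6 CPM. The groups were apart in 697 and overlapped in REH and RCH-ACV. The log2 fold change of *LIMK1* was -0.13 in REH (SE 0.06, adjusted p = 0.332), -0.44 in 697 (SE 0.09, adjusted p = 0.0834) and -0.22 in RCH-ACV (SE 0.08, adjusted p = 0.102), and none of these passed the test. In 697 it was -0.50 (adjusted p = 0.0216 by edgeR) without control siRNA replicate 1. Without both libraries that stood apart it was -0.50 (adjusted p = 0.00649 by edgeR), where 1.62% of all genes passed, against 0.559% with all samples. That fit lacks 1 sample of each group, chosen for standing apart, which narrows the spread that its p-value rests on. The DESeq2 Wald test on all samples of 697 gave an adjusted p of 0.0463. With all samples the fitted decrease of *LIMK1* was smallest in REH and largest in 697, as for *WDR1*. The difference of its effect between the lines did not pass the test in edgeR (adjusted p = 0.482).

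*LIMK2* (NM_005569, chromosome 22 from 31608225 to 31676066), the other LIM kinase, went with the siRNA from a mean of 71.4 ± 3.16 CPM to one of 72.5 ± 2.14 CPM in REH (SD, n = 3). For 697 the means were 42.4 ± 1.56 and 41.9 ± 2.46 CPM, and for RCH-ACV 56.0 ± 1.69 and 55.7 ± 0.446 CPM, control first. Its log2 fold changes, 0.02, -0.02 and -0.01, had adjusted p of 0.878, 0.984 and 0.942. Within each sample the counts of both kinases can be set against each other with no scaling between libraries. There were 70.1 ± 5.53 counts of *LIMK1* per 100 counts of *LIMK2* in the REH controls and 63.2 ± 2.91 with *SOX11* siRNA (SD, n = 3). For 697 this ratio was 120.3 ± 8.26 and 90.2 ± 8.72, and for RCH-ACV 104 ± 9.59 and 89.6 ± 7.51. The ratio was thus lower with *SOX11* siRNA in the mean of each line, and its groups were apart in 697 only. *SSH1* (NM_018984, chromosome 12 from 109171967 to 109251366), a phosphatase that switches cofilins on, had log2 fold changes of 0.03 in REH (adjusted p = 0.846), 0.25 in 697 (adjusted p = 0.537) and 0.01 in RCH-ACV (adjusted p = 0.944). In 697 all 3 samples with *SOX11* siRNA, at 25.3, 29.6 and 26.7 CPM, lay above the controls, at 21.9, 22.3 and 24.4 CPM. The 3 transcripts of *SSH1* in the tables did not move alike, with log2 ratios of means from -0.00 to 0.25 in 697 and from -0.24 to 0.03 in REH.

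**Figure D2:**
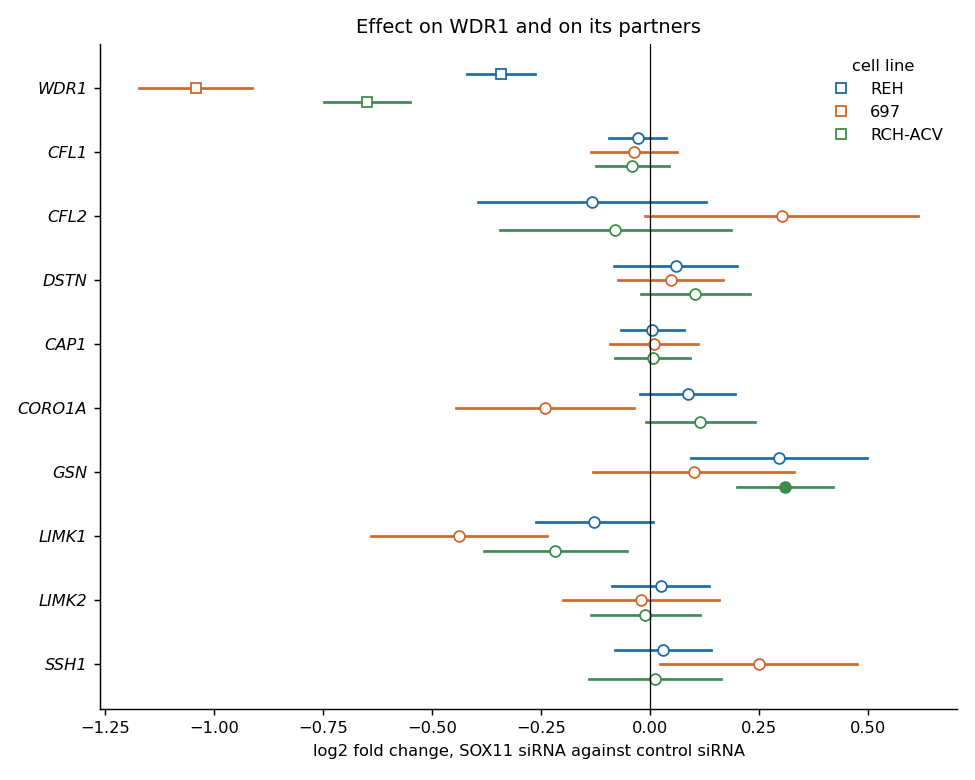
Fitted log2 fold change of each member in REH, 697 and RCH-ACV, *SOX11* siRNA against control siRNA, with its 95% CI (n = 3 against 3). Squares are *WDR1*, which was selected on this contrast and not tested, filled circles passed an adjusted p under 0.05, and open circles did not. The squares of *WDR1* stand at -0.34, -1.04 and -0.65, and the filled circle is *GSN* in RCH-ACV at 0.31.

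Counted together by edgeR's quasi-likelihood test, 0 of the 9 partners passed in REH, where 4.65% of all genes tested did, 0 of 9 passed in 697, where 0.559% did, and 1 of 9, *GSN*, passed in RCH-ACV, where 7.67% did. At an unadjusted p under 0.05 the counts were 1, 3 and 2 of 9, beside 16.9%, 8.32% and 22.6% of all genes, and DESeq2 called 0, 1 and 1, beside 2.55%, 0.712% and 4.77%. Groups that did not overlap were found for 1 partner in REH, 3 in 697 and 2 in RCH-ACV, beside 21.4%, 13.1% and 25.9% of all genes tested. For REH, 697 and RCH-ACV the median log2 fold change of the 9 partners was 0.02, 0.01 and 0.01, and that of all genes tested was -0.00, -0.00 and 0.01. A single gene is 11.1% of the 9 partners, so a count of 0 or 1 is coarse beside the shares of all genes, while the medians lay close to 0 for both.

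With the 18 samples fitted together, 2 partners passed the test of a common effect, which 9.02% of all genes passed. *GSN* rose by 0.26 on the log2 scale (95% CI 0.17 to 0.35, adjusted p = 0.000131) and *LIMK1* fell, with a log2 fold change of -0.25 (95% CI -0.36 to -0.15, adjusted p = 0.00184). Both passed in each of the 18 fits that left out 1 sample. The common log2 fold change was -0.04 for *CFL1* (95% CI -0.08 to 0.01, adjusted p = 0.407), 0.04 for *CFL2* (95% CI -0.13 to 0.22, adjusted p = 0.831), 0.07 for *DSTN* (95% CI -0.00 to 0.14, adjusted p = 0.244) and 0.01 for *CAP1* (95% CI -0.04 to 0.05, adjusted p = 0.922). It was 0.00 for *CORO1A* (adjusted p = 0.973), -0.00 for *LIMK2* (adjusted p = 0.996) and 0.07 for *SSH1* (adjusted p = 0.347). The difference of the effect between the lines passed the test for 0 of the 9 partners in edgeR, where 0.727% of all genes passed, and 2 had an unadjusted p under 0.05, beside 10.2% of all genes. Without the 3 libraries that stood apart, *CORO1A* passed, where 5.11% of all genes did.

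Since *WDR1* acts on filaments that cofilin has bound, the ratio of their counts within a sample was also taken. There were 40.0 ± 0.714 counts of *WDR1* per 100 counts of *CFL1* in the REH controls and 32.2 ± 0.446 with *SOX11* siRNA (SD, n = 3). In 697 the ratio was 14.1 ± 0.272 in the controls and 7.01 ± 0.369 with *SOX11* siRNA, and in RCH-ACV it was 35.9 ± 0.632 and 23.7 ± 2.74. The ratio is between counts of transcripts of unequal length and is not a ratio of molecules. Its decrease follows from that of *WDR1*, because *CFL1* differed little between the groups.

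The lines also differed in their level of the members with no *SOX11* siRNA. These contrasts of control samples did not enter the choice of *WDR1*, and between such distant lines most genes differed, 75.7% of all genes for 697 against REH, 63.6% for 697 against RCH-ACV and 73.8% for RCH-ACV against REH. Of the 10 members, 9, 7 and 8 passed. *WDR1* was lower in the 697 controls, at 142 ± 4.30 CPM, than in those of REH, at 358 ± 8.19 CPM, and RCH-ACV, at 354 ± 9.47 CPM (SD, n = 3), with log2 differences of -1.33 (SE 0.05, adjusted p = 1.89e-18) and -1.32 (SE 0.05, adjusted p = 7.4e-18). REH and RCH-ACV did not differ beyond their spread (-0.01, SE 0.05, adjusted p = 0.801). Thus *WDR1* had both its lowest control level and its largest fitted decrease in 697, an order that is given as a description over 3 lines.

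*CFL1* and *CAP1* differed least, by at most 0.18 on the log2 scale. *CFL1* was 0.18 higher in 697 than in REH (adjusted p = 0.000313) and 0.14 higher in RCH-ACV than in REH (adjusted p = 0.00277). With library size as the only scaling, every difference of a member between 697 and REH shifts down, that of *WDR1* to -1.45, and the differences of *CFL1* no longer passed, at 0.06 (adjusted p = 0.225) and 0.08 (adjusted p = 0.0798). The difference of *CAP1* between 697 and REH, 0.12 (adjusted p = 0.00885), then turned to -0.0020 (adjusted p = 0.971). *DSTN* differed most between 697 and REH, 2.83 higher on the log2 scale (SE 0.06, adjusted p = 1.19e-23), with RCH-ACV between them. *GSN* was highest in RCH-ACV, 2.76 above REH (SE 0.07, adjusted p = 5.48e-22), and 697 lay below RCH-ACV with a log2 difference of -2.16 (SE 0.07, adjusted p = 1.95e-19). *CORO1A* was highest in REH, then in RCH-ACV and lowest in 697, with a log2 difference of -1.27 between 697 and REH (SE 0.08, adjusted p = 1.71e-13). *SSH1* and *LIMK2* had the same order, with log2 differences between 697 and REH of -1.44 (SE 0.07, adjusted p = 6.29e-16) and -0.75 (SE 0.06, adjusted p = 2.25e-11). *CFL2* was higher in 697 than in REH by 0.44 (SE 0.14, adjusted p = 0.00742), and its other differences did not pass. *LIMK1* did not differ between 697 and REH beyond its spread (0.02, SE 0.08, adjusted p = 0.814). Its higher level in RCH-ACV than in REH, by 0.22 (adjusted p = 0.0140), and its difference of -0.20 between 697 and RCH-ACV (adjusted p = 0.0376) lost the call in 3 and in 4 of the 18 fits without 1 sample.

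A list of 62 other actin regulators placed the members among the rest of the pathway. In REH 3 of 58 tested genes passed (5.17%, beside 4.65% of all genes), in 697 0 of 58 passed (beside 0.559%) and in RCH-ACV 9 of 59 passed (15.3%, beside 7.67%), by edgeR's quasi-likelihood test. For 697 the count at an unadjusted p under 0.05 was 6 of 58, beside 8.32% of all genes, and DESeq2 also called 0, beside 0.712%. The RCH-ACV count changed with the libraries fitted, and the share of all genes changed with it. Without *SOX11* siRNA replicate 3 it was 26, as the share of all genes rose to 19.3%, and without control siRNA replicate 2 it was 3, as that share fell to 3.50%. It was 5 without *SOX11* siRNA replicate 1, *SOX11* siRNA replicate 2 or control siRNA replicate 1, where 3.96%, 2.95% and 3.37% of all genes passed. With control siRNA replicate 3 left out the count was 6, beside 4.08% of all genes. In REH it was 1 without *SOX11* siRNA replicate 1 or 2 or control siRNA replicate 1 or 3, where 2.57%, 2.90%, 4.03% and 2.32% of all genes passed. In 697 without both libraries that stood apart it was 2, *TMSB10* and *ACTR2*, beside 1.62% of all genes. The median log2 fold change of the list was 0.01 in REH, 0.00 in 697 and 0.02 in RCH-ACV, so that the list as a whole did not stand lower.

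By role, 0 of the 10 cofilin regulators other than the members passed in REH, 0 of the 9 tested in 697 and 0 of 10 in RCH-ACV. Of all genes 4.65%, 0.559% and 7.67% passed in these lines, so a count of 0 among so few is coarse. Among actins and monomer-binding proteins, *TMSB10*, which encodes thymosin beta 10 that holds actin monomers, fell in REH, with a log2 fold change of -0.22 (SE 0.03, adjusted p = 0.000305), and in RCH-ACV, with -0.21 (SE 0.04, adjusted p = 0.00222). Its value in 697, -0.21 (adjusted p = 0.105), did not pass. The REH controls had a mean of 393 ± 10.6 CPM and the *SOX11* siRNA samples 336 ± 8.68 CPM (SD, n = 3). For 697 the means were 869.5 ± 36.6 and 752 ± 39.8 CPM, and for RCH-ACV 855 ± 10.7 and 738 ± 31.1 CPM. The groups did not overlap in any of the lines. *ACTB*, beta actin, rose in REH by 0.12 on the log2 scale (SE 0.03, adjusted p = 0.0209).

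Among other disassembly factors, *CORO2B*, a coronin, fell in RCH-ACV, from 30.8 ± 3.47 to 21.3 ± 1.29 CPM (log2 fold change -0.55, SE 0.09, adjusted p = 0.00158), the lowest value of the list there. *MICAL2*, an enzyme that oxidizes actin and so breaks filaments, rose in RCH-ACV by 0.64 on the log2 scale (SE 0.18, adjusted p = 0.0359), at the low level of 4.52 ± 0.583 against 7.05 ± 1.32 CPM. In REH its kept transcript had 0 counts in all 6 samples, which allows a level of up to 0.395 CPM at 3 counts per library. In the gelsolin family, *FLII* rose in RCH-ACV by 0.19 (adjusted p = 0.0266). Among genes of filament nucleation, *INF2*, a formin, rose by 0.35 (adjusted p = 0.0102) and *ARPC1B*, a subunit of the Arp2/3 complex, by 0.21 (adjusted p = 0.0201) in RCH-ACV, while *ACTR2*, which encodes its subunit Arp2, fell there, with -0.20 (adjusted p = 0.00551). *WAS*, the activator of the complex in blood cells, rose in REH by 0.20 (adjusted p = 0.0360).

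Of the tropomyosins, which coat filaments and shield them from cofilin, *TPM4* and *TPM3* fell in RCH-ACV, with log2 fold changes of -0.23 (SE 0.04, adjusted p = 0.00184) and -0.13 (SE 0.04, adjusted p = 0.0486). The mean of *TPM4* there was 387 ± 10.0 CPM in the controls and 331 ± 10.0 CPM with *SOX11* siRNA (SD, n = 3). None of the 3 tested genes for SRF, the transcription factor that reads the pool of free actin, and its cofactors passed in any line. With the 18 samples fitted together, 9 of 60 tested list genes passed, beside 9.02% of all genes. *CORO1B*, *MICAL2*, *FLII* and *CAPZA2* rose, by 0.23, 0.55, 0.11 and 0.13 on the log2 scale, and *CORO2B*, *SVIL*, *TMSB10*, *ACTR2* and *TPM4* fell, with -0.50, -0.17, -0.21, -0.15 and -0.12. The count was 14 without the 3 libraries that stood apart, where 11.1% of all genes passed, and 5 without *SOX11* siRNA replicate 2, control siRNA replicate 2 or control siRNA replicate 3 of RCH-ACV, where 6.42%, 6.90% and 6.72% did. *MICAL2* did not pass without the 3 libraries that stood apart (0.42, adjusted p = 0.0874), and the other 8 did. The kept transcript of *MICAL2* had no counts in REH, so its common value rests on the other lines. For the difference of the effect between the lines, 0 of 60 passed in edgeR and 6 had an unadjusted p under 0.05, beside 10.2% of all genes, and without those libraries 7 passed, where 5.11% of all genes did.

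**Figure D3:**
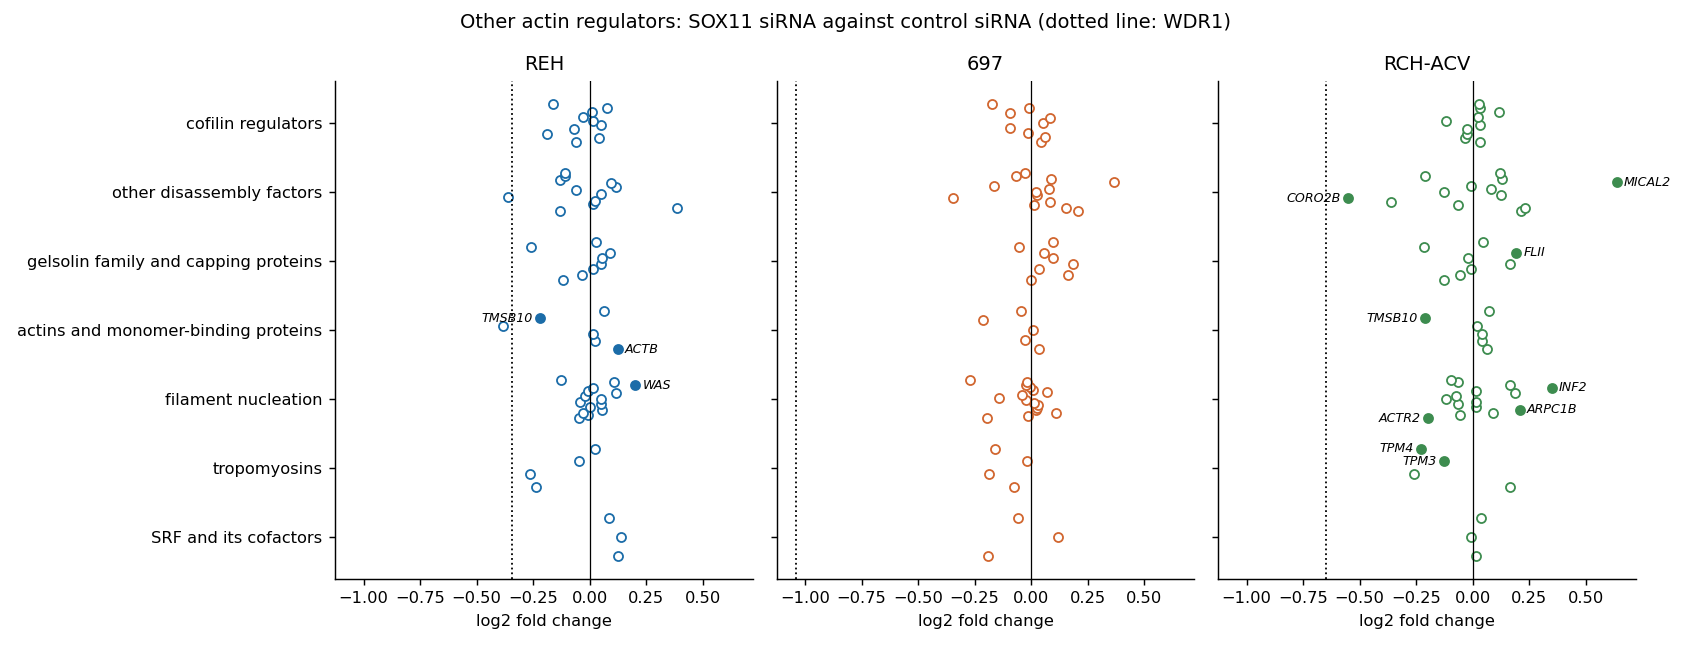
Fitted log2 fold change of the tested genes of the list of 62 other actin regulators, by role, in REH, 697 and RCH-ACV. Filled and named circles passed an adjusted p under 0.05, open circles did not, and the dotted line marks *WDR1* at -0.34, -1.04 and -0.65. The lowest circle in 697 is *CORO2B* at -0.35, right of the dotted line, and 9 circles are filled in RCH-ACV, 3 in REH and 0 in 697.

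The genes whose 3 log2 fold changes were most like those of *WDR1* were not partners of cofilin. Likeness was the root mean square difference over the 3 lines, among 9463 genes whose level averaged 10 CPM or more over the samples. The nearest was *LRRC4* (0.0804), followed by *CANT1* (0.137), *SLIT2* (0.149), *WDTC1* (0.156) and *WBP1L* (0.171). *LRRC4* encodes a leucine-rich repeat protein of the membrane, *CANT1* a nucleotidase, *SLIT2* a secreted guidance cue and *WDTC1* a protein with WD repeats, the fold that *WDR1* also has. Since they were picked on the contrast, they carry no test. The mean of *LRRC4* with control and with *SOX11* siRNA was 37.4 ± 2.16 and 32.0 ± 2.91 CPM for REH, 2.55 ± 0.108 and 1.29 ± 0.264 CPM for 697, and 73.0 ± 6.09 and 46.3 ± 12.5 CPM for RCH-ACV (SD, n = 3). The means of *CANT1* were 52.0 ± 1.41 and 36.3 ± 1.49 CPM, 49.4 ± 3.62 and 26.4 ± 1.59 CPM, and 56.2 ± 2.48 and 37.8 ± 4.60 CPM for the same lines. Those of *WDTC1* were 66.7 ± 2.05 and 44.4 ± 0.503 CPM, 82.9 ± 5.59 and 37.5 ± 2.83 CPM, and 54.5 ± 1.32 and 33.8 ± 4.15 CPM. *LRRC4* in 697 and *SLIT2* in RCH-ACV rest on low levels, the latter with means of 3.30 and 1.98 CPM. In all 5 genes the decrease was largest in 697, as in *WDR1*. The 7-base word stood once in the 3′ UTR of *CANT1*, *WDTC1* and *WBP1L* and not in that of *LRRC4* or *SLIT2*, beside 1.59% of all genes. Both the word and these genes were picked for the same decrease in these libraries, so their meeting is built into the choice and nothing is read from it.

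**Figure D4:**
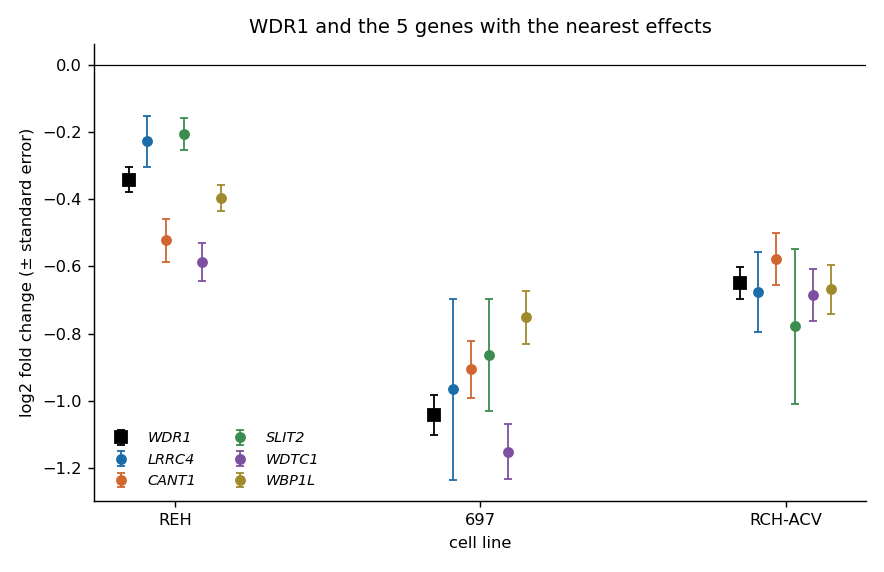
Fitted log2 fold change of *WDR1* (black squares) and of the 5 genes nearest to it (circles) in REH, 697 and RCH-ACV, with the SE of the fit as whiskers (n = 3 against 3). The genes were picked for this likeness, all values lie below 0, and *WDTC1* in 697, at -1.15, is the lowest point.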

How the data were processed

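RNA from 18 samples of 3 cell lines was sequenced from a stranded mRNA library. Per the labels and the methods of the study, the authors checked the reads with FastQC 0.10.1, trimmed and filtered them with the FASTX Toolkit, aligned them to hg19 with STAR 2.5.3a, dropping reads at more than 2 places, and assigned them to RefSeq transcripts with HOMER, whose strand setting is not given in the sources used here. The authors deposited raw counts with no normalization, 1 table of 50678 transcripts for each line, and 0 columns belonged to other samples.

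Symbols were assigned to transcripts by accession (98.0% of transcripts, 99.0% of counts), and for each gene the transcript with the highest total was kept. Each line was fitted with edgeR 4.0.16 in R 4.3.3, with the quasi-likelihood F-test (two-sided) and the Benjamini-Hochberg threshold of 0.05 over all genes tested that the study names, and with TMM and filterByExpr, which were chosen here. One fit of all 18 samples gave the common effect, its difference between lines and the contrasts of controls. Standard errors were derived from the F statistic, so 95% CI are approximate. All 10 members passed the filter on low counts in each line. Of the 62 list genes, *SCIN* and *VIL1* did not in any line, *MICAL2* and *CTTN* did not in REH, *SSH3* and *PFN2* did not in 697, and *CTTN* did not in RCH-ACV. Named were the members, *SOX11*, list genes called in a line, and the 5 genes nearest to *WDR1*. Genes called for the common effect alone were named after their values were seen. The members and lists were chosen with earlier results of these data known. Gene positions, 3′ UTRs and pseudogenes are from GENCODE lifted to hg19. CPM used TMM-scaled library sizes, and floors of 3 counts cover counting error only. No pair of replicates had identical counts (chi-square per degree of freedom 1.30 to 5.18). The fits were tested on simulated data. Other settings tried were library size as the only scaling, RLE size factors, no filter, a filter that asked for over 1 CPM in 3 or more samples, DESeq2 1.42.0 (Wald), the legacy quasi-likelihood of edgeR, a replicate block, an adjusted p under 0.01, the top transcript within each line, leaving out each sample and, chosen after seeing the data, leaving out the 3 libraries that stood apart. Python 3.11.15, pandas 2.3.3 and matplotlib 3.10.9 made tables and plots.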

Additional observations from a re-analysis of the deposited data

How the results depend on the processing

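Over the values recomputed, 332 of those under another setting and 851 of those without 1 sample kept their direction and their side of the threshold. The sign turned for 11 and 40, the call was lost for 3 and 7, and it was gained for 4 and 2. The siRNA effect of *WDR1*, which carries no test, was counted as kept where it shifted by less than the SD between replicates. The cause of the following changes was not tested. At an adjusted p under 0.01 the count of called actin list genes was 1 in REH, 4 in RCH-ACV and 3 for the common effect, beside 2.15%, 3.13% and 4.34% of all genes, and DESeq2 called 1 in REH, beside 2.55%. Leaving out 1 sample gave 1 to 3 such genes in REH, beside 2.32% to 4.05% of all genes. It gave 3 to 26 in RCH-ACV, beside 2.95% to 19.3%, and 5 to 13 for the common effect, beside 6.42% to 10.4%. For the difference between lines it gave 0 to 2, beside 0.402% to 1.31%. Partners numbered 0 to 1 in 697, beside 0.203% to 0.578% of all genes, and 1 to 2 in RCH-ACV, beside 2.95% to 19.3%. DESeq2 called 1 partner in 697, beside 0.712% of all genes. Without the 3 libraries that stood apart, a choice made after seeing the data, 2 partners and 2 list genes were called in 697, 14 list genes for the common effect, and 1 partner and 7 list genes for the difference between lines, beside 1.62%, 11.1% and 5.11% of all genes. That setting gave log2 fold changes of -0.00051 for *CAP1* and 0.031 for *LIMK2* in 697, and of -0.043 for *CFL2* and 0.0095 for *LIMK2* as the common effect. With library size alone the values were -0.0032 for *CAP1* in REH, 0.0040 for *LIMK2* as the common effect, and, between controls, -0.0020 for *CAP1* and -0.10 for *LIMK1* in 697 against REH and -0.026 for *CFL1* in 697 against RCH-ACV. With it 7, 8 and 6 of the 10 members were called between controls in place of 9, 7 and 8. The share of all genes called under that scaling was not computed, and in the main fit it was 75.7%, 63.6% and 73.8%. These counts are therefore not read as a result about the members. RLE size factors gave 0.0060 for *WDR1* between the controls of RCH-ACV and REH. Signs also turned without 1 sample for values near 0. These ran from -0.048 to 0.0093 for *CFL1* in REH, from -0.0067 to 0.014 for *CAP1* and from -0.00098 to 0.064 for *LIMK2* in REH, and from -0.015 to 0.042 for *CAP1* and from -0.044 to 0.035 for *LIMK2* in 697. In RCH-ACV they ran from -0.16 to 0.034 for *CFL2*, from -0.015 to 0.025 for *CAP1*, from -0.032 to 0.017 for *LIMK2* and from -0.015 to 0.038 for *SSH1*. For the common effect they ran from -0.035 to 0.087 for *CFL2*, from -0.0034 to 0.013 for *CAP1*, from -0.020 to 0.035 for *CORO1A* and from -0.010 to 0.011 for *LIMK2*. Between controls they ran from -0.029 to 0.085 for *LIMK1* in 697 against REH and from -0.027 to 0.0081 for *WDR1* in RCH-ACV against REH. The replicate numbers were not shown to pair the samples, since the deviations of same-numbered samples correlated by -0.198 to 0.209 and 1 of 9 pairs exceeded 0.1. With the replicate block the common effect called 4 list genes and 2 partners, beside 5.87% of all genes, and was 0.00060 for *LIMK2*. The block called 0 partners in REH, 0 in 697 and 1 in RCH-ACV, beside 3.74%, 0.238% and 5.32% of all genes. At 3 samples a group and these depths, the 95% CI of *CFL2* in REH still ran from -0.39 to 0.13, and changes inside such an interval were not detectable.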
